A study of Drosophila melanogaster with 2 samples.

Results

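The genes of the vacuolar H+-ATPase (V-ATPase) were examined for binding by the tagged product of tna (tonalli), a relative of SUMO ligases that carries an SP-RING domain. Members were the protein-coding genes whose symbol begins with Vha in the Ensembl annotation of Drosophila melanogaster, 33 of the 13968 protein-coding genes on the 7 assembled chromosome arms. Chromatin immunoprecipitation with sequencing used anti-GFP antibody on whole transgenic embryos of the tna-GFP strain, collected over 0 to 24 h and expressing a tna-eGFP fusion, and both biological replicates belong to this 1 group. All embryonic stages and tissues are mixed in such a collection, so a peak cannot be placed in a cell type, and the role of the tag in binding was not tested. Input or untagged chromatin was not analysed here, and read depth is unknown.

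The V-ATPase is a rotary pump that spends ATP to move protons into lysosomes, endosomes and secretory vesicles, and out of some epithelial cells. Its cytosolic V1 sector hydrolyses ATP, its membrane V0 sector carries the protons, and accessory proteins help it to assemble and reach its membrane. In Drosophila most subunits are encoded by a widely used gene and by further copies whose use is restricted to particular tissues, such as testis, gut or neurons, which allows a broadly used gene to be set beside a copy with the same biochemical role.

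Binding was found at a minority of the pump's genes. A gene was called bound when the summit of a listed peak lay within 500 bp of any of its annotated transcription start sites. In the conservative list of 2580 peaks, which pass an irreproducible discovery rate (IDR, a measure of how repeatably a peak ranks between replicates) of 0.01, the bound members were Vha68-1, Vha68-2, Vha13, VhaSFD, Vha100-2, Vha16-1, Vha16-5 and VhaAC45. These were 8 of 33 members (24.2%), against 18.2% of all protein-coding genes. The second list derived from the pair of replicates held 3500 peaks, and there 11 of 33 members (33.3%) were bound, against 22.2% of all protein-coding genes.

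The replicates gave different counts. In the list of a single replicate the IDR rests on that replicate alone, so it does not measure agreement between the replicates. In the replicate 1 list 5 of 33 members (15.2%) were bound, against 16.4% of all protein-coding genes. In the replicate 2 list 8 of 33 (24.2%) were bound, against 17.7% of all protein-coding genes. The members' share was thus just below the background in replicate 1 and above it in replicate 2, and with 1 group of 2 replicates no test of these shares was made. Vha16-1, Vha16-5 and Vha68-2 were bound in both single-replicate lists, and also in both lists made from the pair. Vha68-1 and VhaM9.7-a were bound in the replicate 1 list only, whereas Vha13, VhaSFD, Vha100-2, Vha44 and Vha36-1 were bound in the replicate 2 list only. Over the 4 lists 12 members were bound at least once and 21 were bound in none. Counts across lists were not made for all protein-coding genes, so those of the members have no background beside them.

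**Figure D1:**
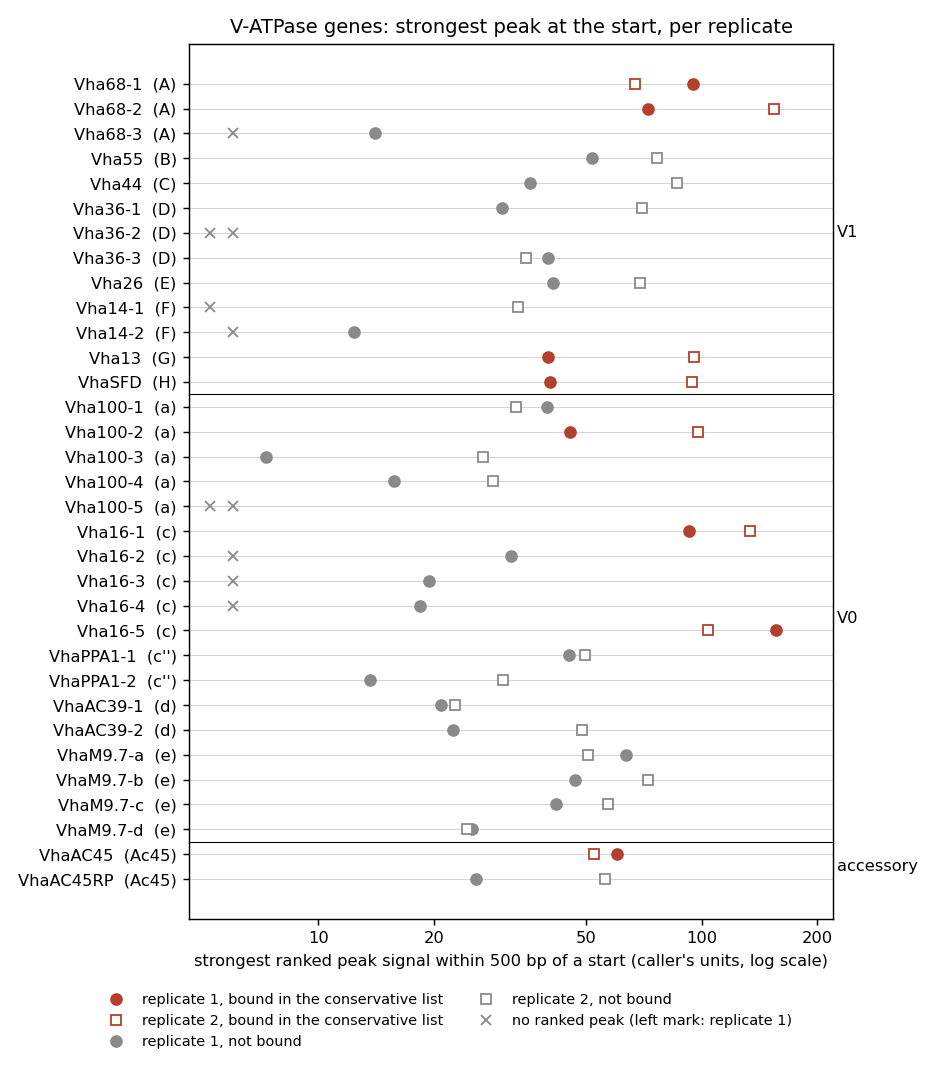
Strongest peak within 500 bp of a start of each of the 33 V-ATPase genes in the unthresholded peak rankings of replicate 1 (circles) and replicate 2 (squares), on a log axis of the caller's signal, with the subunit letter beside each symbol. Red marks the 8 genes bound in the conservative list and crosses mark genes with no ranked peak; signals of the replicates are on separate scales. The rightmost circle is Vha16-5 at 156 and the rightmost square is Vha68-2 at 154.

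The A subunit of V1, which holds the catalytic ATP-hydrolysing site, is encoded by 3 genes on arm 2L that differ in their peaks. Vha68-2, the widely used copy, had a conservative peak of signal 228, rank 809 of 2580, with its summit 91 bp before the nearest of its 5 starts. Its own peak in replicate 1 had a signal of 72.3, and that in replicate 2 had a signal of 154. Vha68-2 was therefore bound in every list. Vha68-3 starts 4422 bp further along the same strand, counted from the Vha68-2 start used by most transcripts. Only 178 bp lie between the end of Vha68-2 and the start of Vha68-3, and Vha68-3 was bound in none. The strongest ranked peak at Vha68-3 had a signal of 3.71 in the ranking that pairs both replicates and 14.0 in replicate 1, and replicate 2 had none. Vha68-1 lies on the opposite strand, 29743 bp from the most-used start of Vha68-2. It had a conservative peak of signal 166, rank 1324, with its summit 77 bp before its own start. The peak at Vha68-1 had a signal of 94.7 in replicate 1 and of 67.0 in replicate 2, where it missed the threshold.

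The promoters of the A subunit genes are shown because adjacent copies differ in their peaks. Each line gives the gene's strand over 180 bases that end 29 past the start base, from the RefSeq sequence of dm6, and capitals mark CGATA or its complement TATCG, the core of the DNA replication-related element (DRE) bound by the promoter factor DREF. Vha68-2 is read from chr2L:12974172-12974351 on the plus strand, Vha68-3 from chr2L:12978636-12978815 on the plus strand and Vha68-1 from chr2L:13004078-13004257 on the minus strand.
Vha68-2: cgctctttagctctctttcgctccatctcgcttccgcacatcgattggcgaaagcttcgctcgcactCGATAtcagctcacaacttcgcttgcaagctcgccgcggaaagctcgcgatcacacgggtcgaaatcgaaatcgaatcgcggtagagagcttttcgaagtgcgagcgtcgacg
Vha68-3: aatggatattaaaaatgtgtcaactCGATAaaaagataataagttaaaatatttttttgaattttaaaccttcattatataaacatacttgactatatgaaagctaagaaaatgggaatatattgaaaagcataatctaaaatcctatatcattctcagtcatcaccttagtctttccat
Vha68-1: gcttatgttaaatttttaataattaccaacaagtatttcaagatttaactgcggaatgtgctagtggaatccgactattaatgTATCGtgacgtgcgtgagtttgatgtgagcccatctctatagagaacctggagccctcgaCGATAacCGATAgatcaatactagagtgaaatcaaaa
The core is present at each of the 3 starts, bound or not. In Vha68-2 it begins 8 bp after the peak summit, and in Vha68-1 the nearest of 3 cores begins 10 bp after it. The single core at Vha68-3 begins at position -125 relative to a start that has almost no signal.

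The peak of Vha68-1 is also near mTor, the Target of rapamycin kinase, which senses nutrients on the lysosome surface together with the pump. The genes are divergent with 373 bp between their starts, and the summit lay 77 bp from the start of Vha68-1 and 296 bp from that of mTor. One peak therefore counts for both genes, nearer to Vha68-1.

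In the conservative list the other V1 genes had weaker peaks than Vha68-1 and Vha68-2, or none. VhaSFD, the H subunit that regulates the joining of V1 with V0, had a conservative peak of signal 114 with its summit 97 bp after the start, in the 5′ UTR. Vha13, the G subunit of the peripheral stalk, had a conservative peak of signal 100.1 with its summit 49 bp before the start. These ranked 2091 and 2289 of 2580, near the bottom of the list. Both were bound in replicate 2, with signals of 94.5 at VhaSFD and 95.5 at Vha13. In replicate 1 their strongest ranked peaks had signals of 40.1 at VhaSFD and 39.7 at Vha13 and missed the threshold.

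The 2 promoters are shown because only 1 of them holds the whole 8-base DRE, TATCGATA. VhaSFD is read from chr2L:16727797-16727976 on the minus strand and Vha13 from chr3R:19644357-19644536 on the minus strand, with capitals as before, so that a whole DRE appears as a run of 8 capitals.
VhaSFD: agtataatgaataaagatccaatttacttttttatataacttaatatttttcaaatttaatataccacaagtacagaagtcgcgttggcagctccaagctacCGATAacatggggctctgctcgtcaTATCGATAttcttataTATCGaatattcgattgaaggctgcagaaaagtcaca
Vha13: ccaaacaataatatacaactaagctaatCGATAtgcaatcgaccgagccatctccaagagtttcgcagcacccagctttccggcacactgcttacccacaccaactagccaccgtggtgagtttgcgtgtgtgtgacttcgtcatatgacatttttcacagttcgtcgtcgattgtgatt
VhaSFD holds 4 overlapping or separate core matches between positions -48 and -7 relative to its start, all more than 100 bp from its summit, which lies downstream. Vha13 holds 1 core, which begins 73 bp before its summit.

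Among the V1 genes not in the conservative list, Vha44 and Vha36-1 came closest. Vha44, the C subunit of the stator, was bound in the other list from both replicates with a signal of 95.0 and a summit 60 bp before the start, inside the 5′ UTR of Hmgs. Vha36-1, the D subunit of the central stalk, was bound there with a signal of 92.0 and a summit 46 bp after the start, near CG8187 as well. Both were bound in replicate 2, Vha44 with a signal of 86.1 and Vha36-1 with a signal of 70.1. In replicate 1 their strongest ranked peaks were 35.7 at Vha44 and 30.1 at Vha36-1, short of the threshold.

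Vha55, the B subunit that binds nucleotide without hydrolysing it, was bound in no list. Its strongest ranked peaks were 86.8 in the paired ranking, 51.7 in replicate 1 and 76.3 in replicate 2. Vha26, the E subunit of the peripheral stalk, had 53.3 in the paired ranking, 41.0 in replicate 1 and 69.2 in replicate 2. Vha14-1, the F subunit of the central stalk, had 43.7 in the paired ranking and 33.2 in replicate 2, with no ranked peak in replicate 1. All 3 carry names of general subunits. The replicate 2 peak at Vha55 had a −log10 IDR of 2.69, past the limit of 0.01 on the IDR scale, and is nevertheless not in the thresholded list. It was 1 of 118 such peaks in replicate 2, and the only one near a V-ATPase start in the 3 rankings.

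The remaining V1 copies were lower still, except Vha36-3. Vha36-2 had a ranked peak of 9.63 in the paired ranking and none in either replicate's own ranking. Vha14-2 had a ranked peak of 12.4 in replicate 1 and none elsewhere. Vha36-3 had 72.7 in the paired ranking, 39.7 in replicate 1 and 34.7 in replicate 2, which in replicate 1 was above the 30.1 of Vha36-1. Of Vha36-1 and Vha36-3, the general copy was thus higher in the paired ranking and in replicate 2, and the numbered one in replicate 1. The summits at Vha36-3 lay 431 bp after a start in the paired ranking, 372 bp in replicate 1 and 295 bp in replicate 2. Those at Vha36-1 were nearer, 46, 50 and 41 bp after its start in the same order.

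In the membrane sector, Vha16-1 and Vha16-5 had the highest signals of all members in the conservative list. Within the single replicates, Vha68-1 was above Vha16-1 in replicate 1, and Vha68-2 was above both in replicate 2. Both encode c proteolipids, the subunits that form the rotating proton-carrying ring. Vha16-1, the widely used copy, had a conservative peak of signal 239, rank 740 of 2580, with its summit 56 bp before a start. Its peaks were 92.7 in replicate 1 and 133 in replicate 2. In replicate 2 a further peak of 89.1 lay 31 bp before a second start, inside an intron of the longer transcript. Vha16-5 had a conservative peak of signal 276, rank 564, with peaks of 156 in replicate 1 and 104 in replicate 2. The order of these copies therefore changed between replicates, Vha16-5 being the higher in replicate 1 and Vha16-1 in replicate 2.

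The Vha16-5 peak does not sit at its own start. The summit lay 286 bp before the start of Vha16-5 and 16 bp from the start of CG12299, a divergent gene whose start is 302 bp away. Vha16-5 was not bound under a window of 250 bp, when the peak interval had to cover the start, or when each summit was credited to the gene with the nearest start. The other 3 c subunit copies, Vha16-2, Vha16-3 and Vha16-4, had no ranked peak in the paired ranking or in replicate 2. In replicate 1 the strongest ranked peaks were 31.8 at Vha16-2, 19.4 at Vha16-3 and 18.5 at Vha16-4.

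The sequence under the summit is shown over the 180 bases that end 29 past the start base of CG12299, chr2L:10737195-10737374 on the plus strand, since this is where the Vha16-5 peak lies. Capitals mark the DRE core or its complement.
CG12299: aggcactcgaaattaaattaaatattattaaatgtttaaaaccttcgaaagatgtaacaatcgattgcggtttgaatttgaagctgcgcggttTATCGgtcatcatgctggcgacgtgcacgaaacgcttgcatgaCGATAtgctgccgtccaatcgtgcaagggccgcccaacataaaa
This stretch holds 2 cores, both within 100 bp of the summit. The matching window at the start of Vha16-5 itself holds 0.

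The a subunit, which anchors the stator and guides protons through the membrane, has 5 copies, and the conservative list held a peak at 1 of them. Vha100-2, the most widely used copy, had a peak of signal 145, rank 1594, with its summit 21 bp after the start, in the 5′ UTR. A second conservative peak of signal 32.0 overlapped it, with its summit 182 bp before the start in an intron of Vti1b. Vha100-2 was bound in replicate 2 with a signal of 97.9 and had a ranked peak of 45.3 in replicate 1 that missed the threshold.

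The other a subunit copies were bound in no list. Vha100-4, known from acid-secreting copper cells of the midgut, follows Vha100-2 on the same strand with 517 bp between the genes. It had ranked peaks of 46.8 in the paired ranking, 15.7 in replicate 1 and 28.6 in replicate 2, below Vha100-2 in each. Vha100-1, the neuronal copy known from synaptic terminals, had 78.3 in the paired ranking, 39.6 in replicate 1 and 32.8 in replicate 2. Its value in replicate 1 was close to the 45.3 of Vha100-2, whereas in replicate 2 it was far below the 97.9 of Vha100-2. Vha100-3 had 7.28 in replicate 1 and 26.9 in replicate 2, with none in the paired ranking. Vha100-5 had no ranked peak in any of the 3 rankings, and was the only member of which this was true.

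**Figure D2:**
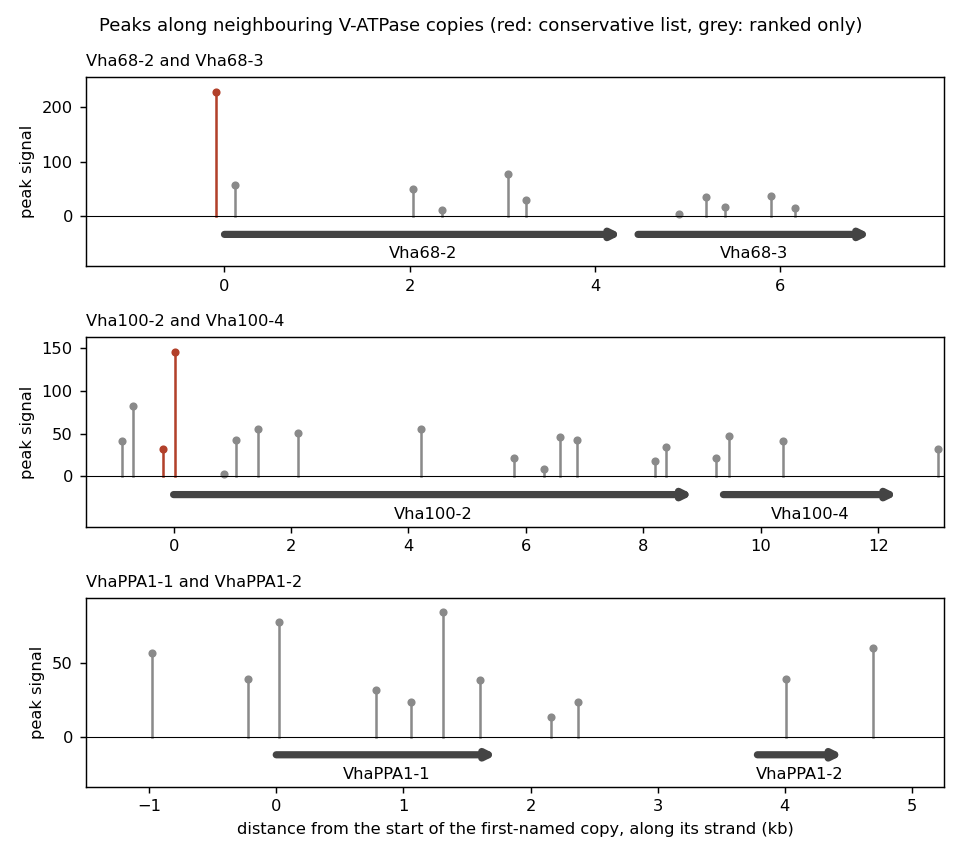
Peaks of the ranking that pairs both replicates, as stems of the caller's signal, along 3 pairs of adjacent V-ATPase copies, against distance in kb from the start of the first copy along its strand; red stems belong to the conservative list and arrows mark the genes. The stem at the start of Vha68-2 stands at 228 and that at Vha100-2 at 145, while no conservative peak stands at Vha68-3, Vha100-4, VhaPPA1-1 or VhaPPA1-2.

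Of the remaining V0 genes, none was in the conservative list. VhaPPA1-1, the c″ proteolipid, had ranked peaks of 78.0 in the paired ranking, 45.0 in replicate 1 and 49.6 in replicate 2. Its neighbour VhaPPA1-2, 3784 bp further along, had 38.9 in the paired ranking, 13.6 in replicate 1 and 30.3 in replicate 2. As with the A and a subunits, the first copy was above the second in every ranking. VhaAC39-1, the d subunit that couples the central stalk to the ring, had 45.2 in the paired ranking, 20.8 in replicate 1 and 22.7 in replicate 2. Here the numbered copy was higher, as VhaAC39-2 had 66.1 in the paired ranking, 22.5 in replicate 1 and 48.8 in replicate 2.

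The e subunit, a small hydrophobic V0 protein, has 4 copies that lay around the threshold. VhaM9.7-a was bound in the other list from both replicates with a signal of 131 and a summit 13 bp before the start. In replicate 1 it was bound with a signal of 63.6 and a summit 123 bp before the start. CG11586 also starts within 500 bp of both summits, and in replicate 1 the start of CG11586 was the nearer, at 112 bp. VhaM9.7-c was bound in the other list with a signal of 109 and a summit 316 bp after the start, in its coding exon. VhaM9.7-b, the widely used copy, had 109 in the paired ranking, 46.8 in replicate 1 and 72.6 in replicate 2, and was bound in none. VhaM9.7-d had 49.6 in the paired ranking, 25.2 in replicate 1 and 24.5 in replicate 2. VhaM9.7-a thus had a higher signal than 3 of the bound genes, VhaSFD, Vha13 and VhaAC45, and yet is not in the conservative list. Its −log10 IDR in that ranking was 0.169.

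The accessory subunit gene VhaAC45, whose product helps to direct the pump, was bound in the conservative list only. Its peak had a signal of 67.4, rank 2395 of 2580, the lowest of the 8 bound members, with its summit 192 bp after the start in the 5′ UTR. A stronger peak of 87.1 in the paired ranking lay 429 bp after the start and is not in that list, with a −log10 IDR of 0.189. In the replicates the strongest ranked peaks at VhaAC45 were 60.2 in replicate 1 and 52.3 in replicate 2, and they missed the threshold. The relative VhaAC45RP had ranked peaks of 96.2 in the paired ranking, 25.7 in replicate 1 and 55.8 in replicate 2, and was bound in none. Its signal in the paired ranking was above that of the bound VhaAC45 peak, with a −log10 IDR of 0.506.

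The lowest bound members by signal of the listed peak were VhaAC45 at 67.4, Vha13 at 100.1 and VhaSFD at 114. By strongest ranked peak, the measure used for unbound members, VhaAC45 stood at 87.1. The highest unbound members in the same ranking were VhaM9.7-a at 131, VhaM9.7-b at 109, VhaM9.7-c at 109, VhaAC45RP at 96.2, Vha44 at 95.7 and Vha36-1 at 92.0. Bound and unbound members thus overlap in signal. At −log10 IDR values of 1.83 and 1.54, VhaM9.7-c and Vha44 were the nearest to the threshold of these 6.

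General and numbered copies can be set side by side as a housekeeping comparison. By symbol, 14 members were general subunits, with no copy number or with the ending -1 or -a. The 19 further copies include VhaAC45RP, which has no number and was placed there as a relative of VhaAC45. In the conservative list 5 of 14 general subunit genes and 3 of 19 further copies were bound. The other list from both replicates held 7 of 14 and 4 of 19, the replicate 1 list 3 of 14 and 2 of 19, and the replicate 2 list 5 of 14 and 3 of 19. The general genes had the higher share in each of the 4 lists, but each difference rests on a few genes and was not tested. In the order conservative, other list, replicate 1 and replicate 2, the share of further copies was 15.8%, 21.1%, 10.5% and 15.8%. Over all protein-coding genes it was 18.2%, 22.2%, 16.4% and 17.7% in the same order, as the plot of shares shows. The further copies were thus lower in each list, by gaps that are small for 19 genes and were not tested. The general genes stood at 35.7%, 50%, 21.4% and 35.7%.

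**Figure D3:**
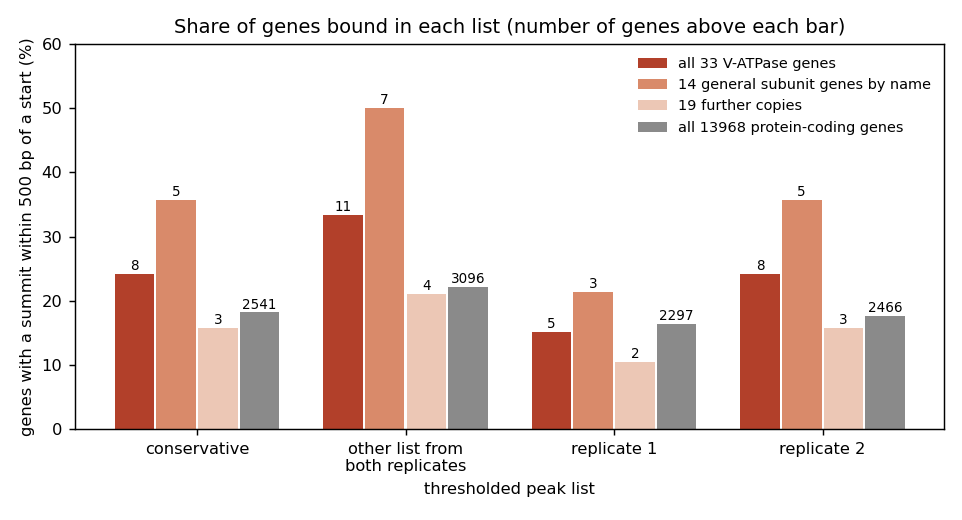
Percentage of genes bound in each of the 4 thresholded peak lists for all 33 V-ATPase genes, the 14 general subunit genes by name, the 19 further copies and all 13968 protein-coding genes, with the number of bound genes above each bar. The general subunit bar is the tallest in every list, and the bar of all 33 V-ATPase genes falls just below that of all protein-coding genes in replicate 1.

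A number in a symbol is not always a guide to use, so members were also grouped by which copy is broadly used in the textbook account. That grouping puts Vha68-2, Vha100-2 and VhaM9.7-b among the general genes in place of Vha68-1, Vha100-1 and VhaM9.7-a. The conservative list then held 6 of 14 general (42.9%) and 2 of 19 restricted genes (10.5%), beside 18.2% of all protein-coding genes. The other list from both replicates held 7 of 14 (50%) and 4 of 19 (21.1%), beside 22.2%. In replicate 2 the counts were 7 of 14 and 1 of 19, beside 17.7%. In replicate 1 they were 2 of 14 (14.3%) and 3 of 19 (15.8%), both just below the 16.4% of all protein-coding genes, so no higher share of general genes was seen there. Of the 2 restricted genes in the conservative list, Vha16-5 shares its peak with CG12299 and Vha68-1 is near mTor.

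The rankings without a threshold hold values for most members. In the paired ranking of 114422 peaks, all 14 general subunit genes and 13 of 19 further copies had a ranked peak within 500 bp. Replicate 1 had one at 13 of 14 general genes and 17 of 19 further copies, and replicate 2 at 14 of 14 and 12 of 19. With genes lacking a peak set to 0, the median signal in the paired ranking was 89.5 over general genes and 46.8 over further copies, beside 51.9 over all protein-coding genes. In replicate 1 the medians were 40.6 over general genes, 22.5 over further copies and 24.3 over all protein-coding genes, and in replicate 2 they were 68.1, 28.6 and 32.9 in the same order. General genes were above both other groups in each ranking, and further copies were near the level of all genes.

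The bound share was higher over genes with more annotated starts. In the conservative list 15.2% of all protein-coding genes with 1 start were bound, 23.8% of those with 2 and 32.7% of those with 3 or more. Among members with 1 start, 4 of 10 general genes and 1 of 15 further copies were bound, so the difference in counts was also present there. Among members with 2 starts, 1 of 3 general genes and 1 of 3 further copies were bound, and among those with 3 or more, 0 of 1 general genes and 1 of 1 further copies.

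The median conservative signal was 156 over the 8 bound members, against 197 over the 2541 bound protein-coding genes, with members spanning 67.4 to 276. It was 114 over the 5 general genes and 228 over the 3 further copies, but single genes went both ways. The further copy Vha100-2, at 145, was below the 197 of all bound genes, and the general gene Vha16-1, at 239, was above it. By textbook use Vha68-2 and Vha100-2 are general genes, and the summit of the third further copy, Vha16-5, was nearer to the start of CG12299. The summits of the 8 bound members lay a median of 84 bp from the nearest own start, against 58 bp over all bound genes. In the other list from both replicates the order turned, with 60 bp over the 11 bound members, against 63 bp over all bound genes. Of the 8 members, 6 (75.0%) had the summit within 100 bp, against 68.4% of bound genes. No member came near the highest signal of the list, 1797.

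Sequence motifs of broadly active promoters were counted in 300 bases around 1 start per gene, from 250 before to 50 after, on both strands. The whole DRE, TATCGATA, was in 2 of 33 member promoters, Vha55 and VhaSFD, beside 9.23% of all protein-coding promoters and 30.6% of those of bound genes. Within 100 bp of the summits it was at 0 of 8 bound members, beside 23.4% of all 2580 conservative summits. Its core CGATA, which overlaps every whole DRE, was in 6 of 8 promoters of bound members and 11 of 25 of the others, beside 80.0% of bound and 47.4% of all protein-coding promoters. Within 100 bp of the summits the core was at 6 of 8 bound members, beside 65.0% of all conservative summits. Bound members thus held the core at a share near that of bound genes in general, while the full element was at 1 of 8 promoters.

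Motif 1, GGTCACAC, was in 5 of 33 member promoters, Vha68-2, Vha16-1, Vha100-1, Vha14-1 and Vha26, beside 7.77% of all protein-coding promoters. The first 2 of these were bound. Around summits it was found at Vha68-2 alone among the 8, beside 5.70% of all conservative summits. The TATA box, TATAAA, was in 16 of 33 (48.5%) beside 45.5%, with 4 of 8 bound members and 12 of 25 others holding it. The E-box CACGTG was in 2 of 33, VhaAC45RP and VhaM9.7-d, beside 4.20%, and TCACGTGA, the site of lysosomal gene networks in mammals, was in 0 of 33, beside 0.158%. A match is a description of letters in these windows and does not show a factor there.

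**Figure D4:**
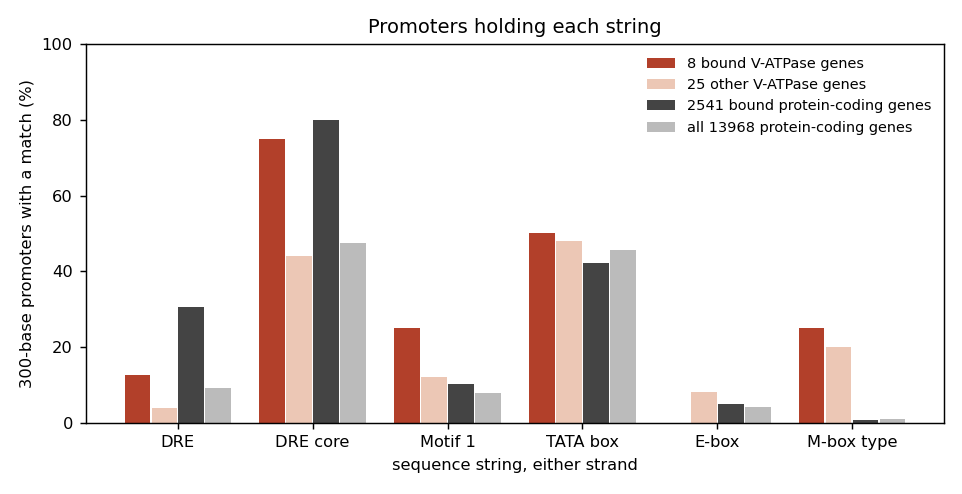
Percentage of 300-base promoters that hold each sequence string on either strand, for the 8 bound V-ATPase genes, the 25 other V-ATPase genes, the 2541 bound protein-coding genes and all 13968. The DRE bar of bound V-ATPase genes (12.5%, 1 of 8 genes) is below that of all bound genes (30.6%), a gap of few genes. The core bars of these groups are alike. The M-box type is TCATGTGA or TCATATGA, chosen after the sequences were read. It stands at 25% and 20% in V-ATPase genes beside under 1% in both other groups.

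Related genes gave shares of the same order. Of 17 genes of the F-type ATP synthase, the mitochondrial rotary relative that makes ATP, 4 (23.5%) were bound in the conservative list, beside the 18.2% of all protein-coding genes. They were ATPsynF at 290, ATPsynCF6 at 266, ATPsynE at 139 and ATPsyngamma at 132, where the summits of ATPsynF and ATPsyngamma were nearer to the starts of CG3548 and yata. Of 36 genes of lysosomes, TORC1 signalling and V-ATPase assembly, 11 (30.6%) were bound, beside the same 18.2%. The kinase gene mTor is not among these 36, because it was sought under the symbol Tor, which matched no gene. It would count as bound through the peak it shares with Vha68-1. The highest were CtsF, a lysosomal protease, at 855, Vps16A, a vesicle tethering factor, at 706, spin, a lysosomal transporter, at 526 and dor, another tethering factor, at 304. All 4 were above the 276 of Vha16-5, the highest V-ATPase signal. Rbcn-3A, whose product helps V1 and V0 to assemble, was bound at 198 with the start of Spx nearer.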

How the data were processed

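For tna-eGFP ChIP-seq of 2 replicates, the authors deposited peak lists in dm6 coordinates. Each replicate has a thresholded and a ranked list, and 2 of each kind combine both replicates, per the description supplied with the lists. The peak signal is the caller's value as deposited by the authors. It is compared only within a list and the ranking that list came from, apart from the medians under alternative settings. The −log10 IDR values used are those the authors deposited in the ranked lists. For the aligner and caller, names are not given in the sources used. Read counts are not in these lists, so depth is unknown and no interval was computed.

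Starts came from Ensembl release 115 and sequence from RefSeq dm6. The promoter of a gene was taken at the start used by most of its transcripts. All 33 members were named, with pathway genes as counts and up to 4 examples (Rbcn-3A was added after its value was seen). Of 45 lysosome and TORC1 symbols, 36 matched, and Tor, an older symbol of mTor, was among those that did not. The members, lists and groupings were chosen with earlier results of these data known. Counting was tried on simulated summits planted within 500 bp of starts, where 200 of 200 planted genes were recovered. This checks the counting code only, and not how often a call is false. Work used Python 3.11.15 and pandas 2.3.3. Alternatives covered other lists, windows, IDR limits and crediting rules.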

Additional observations from a re-analysis of the deposited data

How the results depend on the processing

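Of 75 alternative settings, 47 left their result in place, 17 moved a value, 9 lowered and 2 raised a count by over 1.5 times. At an IDR of at most 0.001, 3 of 33 V-ATPase genes were bound (Vha68-2, Vha16-1 and Vha16-5), beside 9.23% of all genes. By symbol these were 1 of 14 general genes and 2 of 19 further copies, so general genes did not have the higher share there. By textbook use they were 2 of 14 general and 1 of 19 restricted genes. This limit also gave 2 F-type genes, 7 lysosome genes and a median V-ATPase signal of 239. With the IDR limit at 0.05 the counts were 7 F-type genes and 25.7% of all genes, with a signal of 114. Crediting the nearest start gave 2 F-type genes, 7 lysosome genes and 13.9% of all genes. The share of all genes was 22.2% in the other list from both replicates, 15.9% within 250 bp, 20.5% within 1000 bp and 14.5% for intervals covering a start. The median V-ATPase signal was 131 in the other list and 145 within 250 or 1000 bp, and the median distance was 60 bp in the other list, where that of all bound genes was 63 bp. A DRE was at 0 V-ATPase genes within 100 bp of the summit or start, and the 5-base core at 17 promoters. Leaving out 1 replicate gave 5 to 8 V-ATPase genes, 3 to 5 general, 2 to 3 further copies, 3 to 4 F-type, 10 to 11 lysosome, 16.4% to 17.7% of all genes, a signal of 92.7 to 96.7 and a distance of 58 to 83 bp. The lower V-ATPase and general counts are those without replicate 2. Signals of a single replicate are on their own scale, so the 92.7 to 96.7 cannot be set beside the median of the conservative list. The cause of these changes was not tested, and depth limits cannot be given without read counts. No paired analysis was possible because there is 1 group.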

Other observations

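Reading the promoters showed a string that was not among the motifs counted above. The M-box, TCATGTGA, is recognised by basic helix-loop-helix factors of the MITF family, and the Drosophila factor Mitf is known as a regulator of V-ATPase genes. A near relative of the string, TCATATGA, was counted with it. Since these strings were chosen after the sequences had been read, the counts are a description with no test. In the 300-base promoters either string, on both strands, was in 7 of 33 V-ATPase genes (21.2%), against 126 of 13968 protein-coding genes (0.902%). The M-box alone was in 4 of 33 (12.1%), against 71 of 13968 (0.508%). Within 100 bp of the start either string was in 8 of 33 (24.2%), against 88 of 13968 (0.630%). There the M-box alone was in 5 of 33 (15.2%), against 51 of 13968 (0.365%). By textbook use, 8 of 14 general and 0 of 19 restricted genes held either string within 100 bp of the start. By symbol, 7 of 14 general genes and 1 of 19 further copies did.

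The matches kept to a narrow position. They began between 11 bases before the start, in VhaAC45, and 45 bases after it, in Vha55, with Vha13, Vha14-1, Vha26, VhaAC39-1, VhaM9.7-b and VhaPPA1-1 between. Of the 8 sites, 6 are printed below and show the string in capitals with 10 bases on either side, along the gene's strand, from RefSeq dm6. They are chr3R:19644378-19644405 (minus), chr3R:5591769-5591796 (plus), chr3R:12627767-12627794 (minus), chrX:3880777-3880804 (plus), chr3L:21539874-21539901 (plus) and chr3R:14904010-14904037 (minus), in the order printed.
Vha13: tgtgacttcgTCATATGAcatttttcac
Vha26: tttcgtgaaaTCATATGAtcgatttgca
Vha55: gcgtgacgggTCATGTGAcggcacgtga
VhaAC39-1: gagttgaaaaTCATATGActtgtcgatc
VhaM9.7-b: gacatgtccgTCATGTGAtattcgttgc
VhaPPA1-1: aaaatgtacgTCATGTGAttgtggattc
TCATATGA is its own reverse complement, so its sites have no orientation.

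The strings did not go with the peaks. Within 100 bp of the start either string was at 2 of 8 bound V-ATPase genes (25%), Vha13 and VhaAC45, and at 6 of 25 others (24%). Over all genes either was at 13 of 2541 bound ones (0.512%), beside the 0.630% of all protein-coding genes.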
